A study of Homo sapiens with 12 samples.

Results

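The metallothionein genes of human chromosome 16 were followed across HA22T and PLC5, a pair of human hepatocellular carcinoma (HCC) cell lines, with and without knockdown of GALNT1. Members were the 9 genes MT1A, MT1B, MT1E, MT1F, MT1G, MT1H, MT1M, MT1X and MT2A, taken as every array probe whose RefSeq transcript accession carries one of these symbols. They are 9 of the 20503 genes that the array's accessions name, and were measured by 12 of its 50599 different probes, 2 each for MT1E, MT1H and MT1X and 1 for each other gene. HA22T or PLC5 cells received 10 nM of either a non-targeting siRNA (siControl) or a pool of siRNAs against GALNT1 (siGALNT1), a glycosyltransferase that starts O-linked glycan chains, and total RNA was taken at 48 h. The 4 groups, HA22T siControl, HA22T siGALNT1, PLC5 siControl and PLC5 siGALNT1, held 3 single-color arrays each. Both lines were kept in the same serum-supplemented medium, and the labels name no added metal or hormone. RNA was extracted in triplicate. The PCR work on the same knockdowns is described as using independent transfections, but for the arrays of a group the labels and methods do not say so, and p-values then measure only the spread between these arrays, which may be technical.

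Metallothioneins are small, cysteine-rich proteins that bind zinc and copper and also capture cadmium. When zinc in the cell rises, the zinc-finger factor MTF1 binds short metal response elements upstream of the MT1 and MT2A genes and raises their transcription, and glucocorticoids and inflammatory signals can induce them as well. The proteins are abundant in liver, and low levels in HCC tissue are well known. The MT1 and MT2A transcripts are close paralogs, so a probe for 1 member may also bind RNA of another. The files hold no probe sequences, and the part of such cross-binding in any value below was not tested.

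Promoters of the genes that differed together between the lines are shown because they carry the element through which metal acts on this family. RefSeq promoters of build GRCh38.p14 were at hand for 4 of the 9 members, MT2A, MT1B, MT1H and MT1X, all on the plus strand of chromosome 16. The 250 bases before the start were searched on both strands for the 7-base core of the metal response element, written TGCACNC or TGCGCNC with N for any base, and the capitals mark each match. The MT2A stretch is chr16:56608334-56608583, that of MT1B chr16:56651636-56651885, that of MT1H chr16:56669564-56669813 and that of MT1X chr16:56682220-56682469.
MT2A: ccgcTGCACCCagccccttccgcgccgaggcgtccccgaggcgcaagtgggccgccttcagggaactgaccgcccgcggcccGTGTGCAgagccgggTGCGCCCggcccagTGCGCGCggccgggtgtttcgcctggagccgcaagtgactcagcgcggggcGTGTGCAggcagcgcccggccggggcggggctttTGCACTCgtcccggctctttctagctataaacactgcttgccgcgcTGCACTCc
MT1B: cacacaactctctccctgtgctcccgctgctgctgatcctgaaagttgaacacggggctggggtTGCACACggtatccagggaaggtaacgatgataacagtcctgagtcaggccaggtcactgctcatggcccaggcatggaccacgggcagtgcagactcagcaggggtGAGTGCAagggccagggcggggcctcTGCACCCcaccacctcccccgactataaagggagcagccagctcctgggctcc
MT1H: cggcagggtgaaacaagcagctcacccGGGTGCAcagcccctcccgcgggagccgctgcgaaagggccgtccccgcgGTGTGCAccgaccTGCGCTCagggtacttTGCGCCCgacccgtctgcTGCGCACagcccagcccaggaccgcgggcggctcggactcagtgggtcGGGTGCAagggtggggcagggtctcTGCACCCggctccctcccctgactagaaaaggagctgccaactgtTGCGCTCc
MT1X: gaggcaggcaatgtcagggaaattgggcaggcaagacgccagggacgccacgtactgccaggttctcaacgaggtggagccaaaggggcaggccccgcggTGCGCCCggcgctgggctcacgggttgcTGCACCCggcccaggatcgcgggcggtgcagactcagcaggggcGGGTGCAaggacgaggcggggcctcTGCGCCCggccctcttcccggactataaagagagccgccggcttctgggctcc
MT1H held 8 cores, 5 of them on the plus strand. MT2A held 7, MT1X 4 and MT1B 3, and no matches overlapped each other. Among 35116 promoters of the same length, 24.8% held at least 1 core, 1.58% at least 3, 0.37% at least 4, 0.0313% at least 7 and 0.0171% at least 8. A core on the plus strand began 53 bases before the start in MT1B, MT1H and MT1X and 54 bases before it in MT2A. MT4, a neighbor that is no member, also held 3 cores. A match is a run of letters and was not measured as a binding site.

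Each signal is given on the log2 scale after the array's own 75th percentile was subtracted, so that 0 is that percentile and a difference of 1 is a 2-fold change. A level belongs to its probe, and levels of different probes are not set against each other. Each gene was read from its brightest probe. Between 36679 and 48873 of the 58717 spots of an array were well above background, and 0 spots were saturated. Slide 1 carried the 6 HA22T arrays together with both replicate 1 arrays of PLC5, and slide 2 carried the remaining 4. The knockdown was checked on GALNT1 itself, which read 1.32, 0.75 and 0.85 in HA22T siControl against -3.15, -3.68 and -5.55 in HA22T siGALNT1, and 0.87, 0.37 and 0.61 in PLC5 siControl against -1.93, -3.47 and -3.92 in PLC5 siGALNT1. Of the 12 member probes, 9 were well above background on all 12 arrays.

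Metallothionein signals differed between the lines. MT2A, MT1E, MT1H, MT1X, MT1A, MT1M and MT1B were lower in PLC5 than in HA22T, and MT1F was higher. With siControl, 8 of the 8 member genes bright enough to be tested passed an adjusted p of 0.05 (limma, Benjamini-Hochberg), 7 lower in PLC5 and 1 higher. Over all 38011 probes tested in that comparison, 11% were called lower in PLC5 and 11% higher. With siGALNT1 9.79% of 36741 probes were called lower and 13.1% higher. MT1M was tested through its HA22T arrays and was at background on most PLC5 arrays, so the other 7, measured on all arrays, give the fuller description: 6 were called lower and 1 higher with either siRNA. Their median log2 difference, PLC5 minus HA22T, was -4.12 with siControl and -3.58 with siGALNT1, beside -0.04 and -0.10 over all probes tested. With MT1M added at its bound the medians were -3.90 and -3.53. In RNA from a whole culture, fewer expressing cells and less RNA per cell cannot be told apart.

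**Figure D1:**
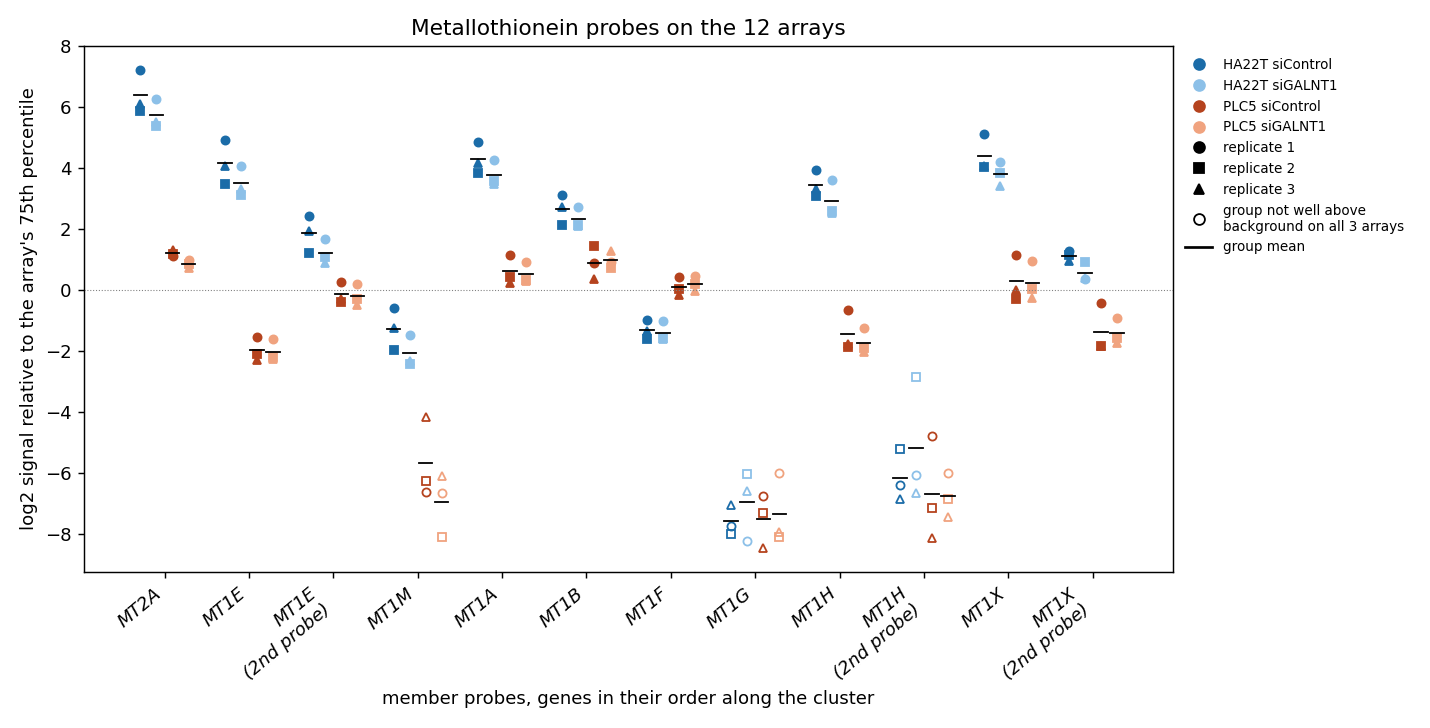
Log2 signal relative to the array's 75th percentile for the 12 member probes on the 12 arrays, with genes in their order along the cluster, symbols for the replicate number and a bar for the mean of 3 arrays. For every filled probe except MT1F the blue HA22T points lie above the red PLC5 points, as for MT2A with 5.40 to 7.23 against 0.73 to 1.32, and open symbols mark groups that were not well above background on all 3 arrays.

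MT2A, the main isoform in most human tissues, was high in HA22T and low in PLC5. It read 7.23, 5.89 and 6.12 in HA22T siControl, 6.28, 5.40 and 5.52 in HA22T siGALNT1, 1.14, 1.18 and 1.32 in PLC5 siControl, and 0.99, 0.86 and 0.73 in PLC5 siGALNT1. The lines lay wide apart with either siRNA, and the SDs were smaller in PLC5 (0.09 and 0.13 in PLC5 against 0.72 and 0.48 in HA22T, n = 3 each). MT2A was 36.7-fold lower in PLC5 with siControl (log2 difference -5.20 ± 0.36 SE, adjusted p = 1.92e-06) and 29.3-fold lower with siGALNT1 (-4.87 ± 0.36, adjusted p = 3.35e-06).

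MT1E lies next to the pseudogene MT1L and close to MT2A in the cluster. Its brighter probe read 4.92, 3.47 and 4.08 in HA22T siControl, 4.08, 3.14 and 3.32 in HA22T siGALNT1, -1.54, -2.08 and -2.27 in PLC5 siControl, and -1.60, -2.18 and -2.27 in PLC5 siGALNT1. No PLC5 array came near an HA22T array. The fall from HA22T to PLC5 was 69.7-fold with siControl (-6.12 ± 0.40, adjusted p = 1.4e-06) and 46.1-fold with siGALNT1 (-5.53 ± 0.40, adjusted p = 3.22e-06). The second MT1E probe moved the same way but by far less. It read 1.23 to 2.45 in HA22T siControl and -0.38 to 0.28 in PLC5 siControl, a 4.02-fold difference (-2.01 ± 0.36, adjusted p = 0.00205). With siGALNT1 the second probe was 2.67-fold lower in PLC5 (adjusted p = 0.0163). With its probes averaged MT1E differed by -4.07 with siControl and -3.47 with siGALNT1. The 2 probes of MT1E therefore disagreed on the size of the gap but not on its direction, and which transcripts each of them captures was not tested.

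MT1H and MT1X lie toward the far end of the cluster. MT1H read 3.95, 3.10 and 3.31 in HA22T siControl, 3.63, 2.59 and 2.54 in HA22T siGALNT1, -0.66, -1.87 and -1.78 in PLC5 siControl, and -1.25, -1.90 and -2.04 in PLC5 siGALNT1. MT1H was 29.6-fold lower in PLC5 with siControl (-4.89 ± 0.43, adjusted p = 9.96e-06) and 25.1-fold lower with siGALNT1 (-4.65 ± 0.43, adjusted p = 1.58e-05). Its second probe was dim, from -8.12 to -2.85, was well above background on 2 HA22T arrays alone, and was not tested. MT1X, one of the more widely expressed MT1 isoforms, read 5.12, 4.05 and 4.06 in HA22T siControl, 4.22, 3.84 and 3.40 in HA22T siGALNT1, 1.17, -0.28 and -0.01 in PLC5 siControl, and 0.95, 0.03 and -0.26 in PLC5 siGALNT1. The lines did not overlap. MT1X was 17.4-fold lower in PLC5 with siControl (-4.12 ± 0.47, adjusted p = 7.34e-05) and 12-fold lower with siGALNT1 (-3.58 ± 0.47, adjusted p = 0.000218). The second probe of MT1X gave 5.64-fold (adjusted p = 0.000733) and 3.9-fold (adjusted p = 0.00378).

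MT1A and MT1M also encode metal-binding MT1 isoforms. MT1A read 4.87, 3.85 and 4.18 in HA22T siControl, 4.29, 3.58 and 3.49 in HA22T siGALNT1, 1.17, 0.44 and 0.24 in PLC5 siControl, and 0.93, 0.34 and 0.32 in PLC5 siGALNT1. Its signal was clear in both lines and was 12.8-fold lower in PLC5 with siControl (-3.68 ± 0.37, adjusted p = 2.75e-05) and 9.56-fold lower with siGALNT1 (-3.26 ± 0.37, adjusted p = 7.25e-05). MT1M fell to near background in PLC5. It read -0.58, -1.97 and -1.25 in HA22T siControl, -1.48, -2.41 and -2.33 in HA22T siGALNT1, -6.61, -6.26 and -4.17 in PLC5 siControl, and -6.64, -8.10 and -6.10 in PLC5 siGALNT1. MT1M was well above background on all 6 HA22T arrays and on 1 PLC5 array, replicate 3 of siControl. Its size is therefore given as a bound, with each PLC5 array raised to its dimmest signal well above background. MT1M was at least 10.7-fold lower in PLC5 with siControl (group means -1.27 in HA22T and -5.68 in PLC5), where 1 of 3 PLC5 arrays was measured. With siGALNT1 it was at least 11.2-fold lower (means -2.07 and -6.95), where 0 of 3 were. MT1M entered the tests only through its HA22T arrays. Its p-values set their signal against PLC5 background and are not quoted here.

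MT1B and MT1F, which are neighbors in the cluster, differed in opposite directions. MT1B read 3.12, 2.15 and 2.73 in HA22T siControl, 2.74, 2.14 and 2.11 in HA22T siGALNT1, 0.90, 1.45 and 0.36 in PLC5 siControl, and 0.93, 0.73 and 1.30 in PLC5 siGALNT1. It was 3.4-fold lower in PLC5 with siControl (-1.77 ± 0.36, adjusted p = 0.00389) and 2.54-fold lower with siGALNT1 (-1.34 ± 0.36, adjusted p = 0.0185). The call of MT1B with siGALNT1 was lost without replicate 1 of HA22T siGALNT1 (-1.14, adjusted p = 0.0614), without replicate 1 of PLC5 siGALNT1 (-1.31, adjusted p = 0.0543) and without replicate 2 of that group (-1.22, adjusted p = 0.0695). MT1F ran the other way. It read -0.97, -1.59 and -1.34 in HA22T siControl, -0.996, -1.58 and -1.60 in HA22T siGALNT1, 0.44, 0.04 and -0.15 in PLC5 siControl, and 0.45, 0.19 and -0.03 in PLC5 siGALNT1. Every PLC5 array lay above every HA22T array, and MT1F was 2.65-fold higher in PLC5 with siControl (1.41 ± 0.28, adjusted p = 0.00401) and 3.03-fold higher with siGALNT1 (1.60 ± 0.28, adjusted p = 0.00184). MT1G, often described as silenced in liver cancer, was not well above background on any of the 12 arrays (0 in each group). Its values, from -8.45 to -5.99, carry no order.

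**Figure D2:**
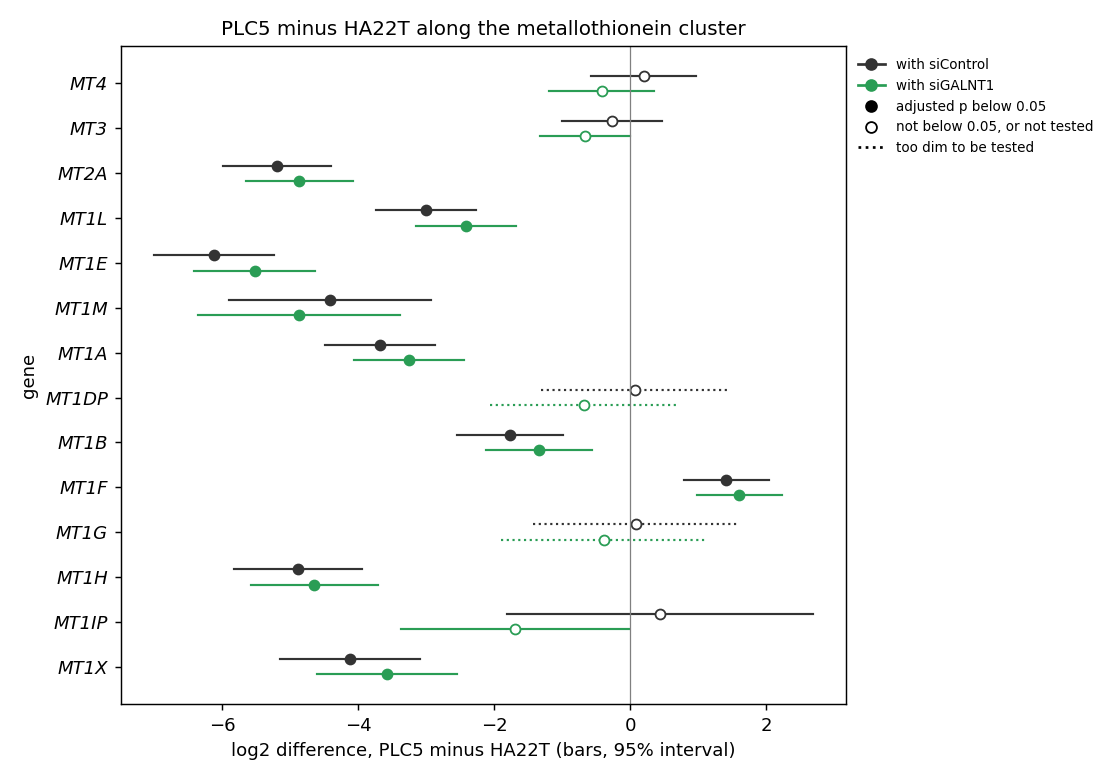
Log2 difference, PLC5 minus HA22T, with its 95% interval for each metallothionein locus read on the array, from MT4 at the top to MT1X at the bottom in their order along the cluster, with siControl (black) and siGALNT1 (green). Filled circles passed an adjusted p of 0.05 and dotted bars were too dim to be tested, and the filled circles lie between -6.12 and -1.34 except those of MT1F at 1.41 and 1.60, while the MT1M circles are fitted to PLC5 arrays mostly at background, where the data bound the difference at -3.42 and -3.48.

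Taken over both siRNAs, the 6 PLC5 arrays and the 6 HA22T arrays did not overlap for any of the 7 member genes measured on all arrays. The two-sided exact permutation p was 0.00216 for each, the smallest that 6 against 6 arrays can give. How many of all probes separate the lines in this way was not counted. By limma 22% of all probes were called between the lines with siControl and 22.9% with siGALNT1. The means were 1.04 in PLC5 and 6.07 in HA22T for MT2A, -1.99 and 3.84 for MT1E, and -1.58 and 3.19 for MT1H. They were 0.27 and 4.12 for MT1X and 0.57 and 4.04 for MT1A. MT1B had 0.94 and 2.50, and MT1F 0.16 and -1.34. For MT1M, with PLC5 arrays at background raised to their bound, the highest PLC5 value was -4.17 and the lowest HA22T value -2.41. Because PLC5 arrays lay on both slides, the differences were also taken within slide 1, where replicate 1 of PLC5 met the HA22T arrays. There MT2A differed by -5.27 with siControl and -4.74 with siGALNT1, MT1E by -5.70 and -5.11, MT1H by -4.11 and -4.17, and MT1X by -3.24 and -2.87. MT1A gave -3.13 and -2.86, MT1B -1.77 and -1.40, and MT1F 1.74 and 1.84. MT1M was at background on both replicate 1 arrays of PLC5, which leaves bounds of at least 9.73-fold and 5.53-fold lower. With slide as a block 8 members were called with siControl and 7 with siGALNT1, where MT1B missed the threshold (-1.38, adjusted p = 0.0544). Each line is a single culture history, so these tests compare HA22T with PLC5 and nothing wider.

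The cluster also holds loci that are no members. MT1L, a transcribed pseudogene between MT2A and MT1E, read 4.91, 3.87 and 4.13 in HA22T siControl and 1.35, 1.24 and 1.31 in PLC5 siControl. It was 8.03-fold lower in PLC5 with siControl (adjusted p = 6.34e-05) and 5.34-fold lower with siGALNT1 (adjusted p = 0.000329), and as a close copy of the members its probe may bind their RNA. MT3, the brain isoform and the neighbor of MT2A in the cluster, was well above background in both lines. It read 5.31 to 6.25 over 6 PLC5 arrays and 6.20 to 6.81 over 5 HA22T arrays, its spot on replicate 1 of HA22T siControl having been left out as non-uniform. Its differences of -0.27 and -0.67 did not pass the adjustment (adjusted p = 0.627 and 0.134, unadjusted p = 0.434 and 0.047). Over both siRNAs MT3 was lower in PLC5 (log2 difference -0.49, exact permutation p = 0.013, unadjusted). MT4, the isoform of stratified epithelium, differed by 0.19 with siControl (95% interval -0.58 to 0.97) and by -0.42 with siGALNT1 (-1.20 to 0.35). MT1DP was not well above background on any array, MT1IP was left out as non-uniform on several arrays, and 3 further loci, MT1JP, MT1CP and MT1HL1, had no matched probe.

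MTF1, the factor that reads zinc and switches these genes on, read 0.11, -0.08 and -0.02 in HA22T siControl and -0.76, -1.39 and -1.09 in PLC5 siControl. It was 2.12-fold lower in PLC5 with siControl (-1.09 ± 0.25, adjusted p = 0.00865), while with siGALNT1 the difference of -0.56 ± 0.25 did not pass (adjusted p = 0.131). SLC30A1, a zinc exporter of the plasma membrane and itself a target of MTF1, read 2.15, 2.11 and 2.20 in HA22T siControl and 2.32, 1.95 and 2.07 in PLC5 siControl. Its line difference was -0.04 with siControl (95% interval -0.51 to 0.43) and -0.03 with siGALNT1 (-0.50 to 0.44). Of 8 tested genes of metal-responsive regulation, 1 was higher and 2 were lower in PLC5 with siControl, and 1 and 1 with siGALNT1. Over all probes 22% and 22.9% were called in either direction in these 2 comparisons. SELENOW, a selenoprotein, was 30.2-fold higher in PLC5 with siControl (adjusted p = 5.89e-07). TXN, the redox protein thioredoxin, differed by -2.26 (adjusted p = 0.000455). HMOX1, the stress-induced heme oxygenase, differed by 0.18 (adjusted p = 0.708).

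Zinc transporters work beside the metallothioneins, and their counts are small. Between the lines 22% of all probes were called in either direction with siControl and 22.9% with siGALNT1. Among zinc exporters of the SLC30 family, 1 of 9 tested genes was called with siControl and 0 of 9 with siGALNT1, where 4 had an unadjusted p below 0.05. The gene called was SLC30A10, at least 3.11-fold higher in PLC5 (adjusted p = 0.0242), which was not well above background in HA22T siControl. Among importers of the SLC39 family, 1 of 14 was higher and 1 lower in PLC5 with siControl, and 2 of 13 were higher and 1 lower with siGALNT1. SLC39A14, an importer of zinc, iron and manganese in liver, was 3.56-fold higher in PLC5 with siControl (adjusted p = 0.000333) and 3.62-fold higher with siGALNT1, and its second probe moved the same way. SLC39A8 was lower in PLC5, by -1.51 (adjusted p = 0.00163) and -1.01 (adjusted p = 0.0177). SLC39A6 was higher in PLC5 with siGALNT1 alone by the threshold (1.11, adjusted p = 0.0181), and whether that differs from siControl is not shown by these calls. The median difference was 0.39 and 0.54 over the exporters and -0.12 and 0.24 over the importers, with siControl and siGALNT1, against -0.04 and -0.10 over all probes.

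**Figure D3:**
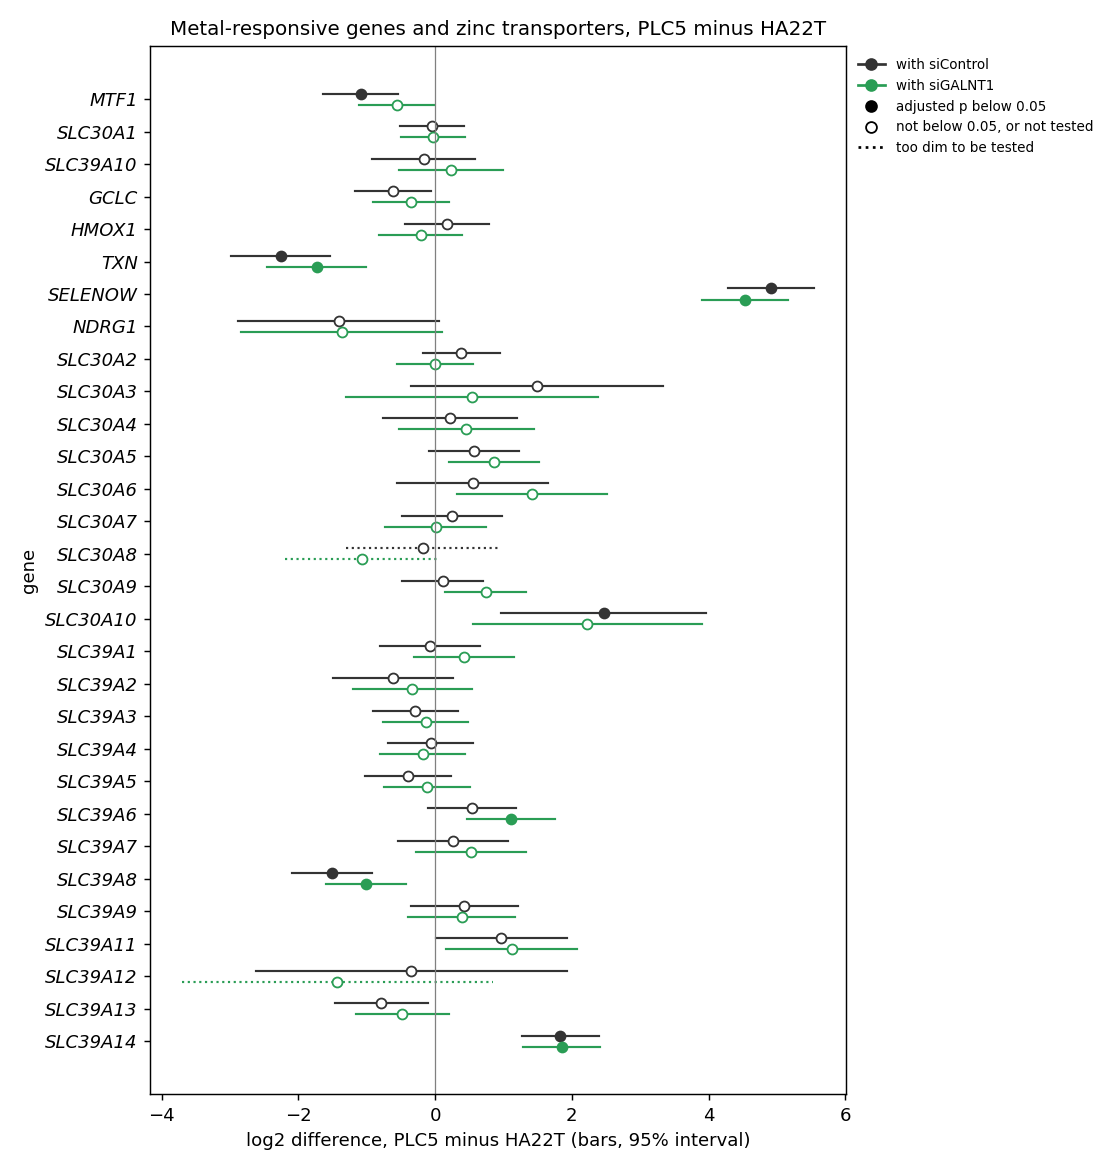
Log2 difference, PLC5 minus HA22T, with its 95% interval for the genes of metal-responsive regulation, the zinc exporters (SLC30) and the zinc importers (SLC39), with siControl (black) and siGALNT1 (green). SLC30A1 sits at -0.04 and -0.03, and circles filled for an adjusted p below 0.05 with both siRNAs are those of TXN, SELENOW, SLC39A8 and SLC39A14, with MTF1, SLC30A10 and SLC39A6 filled for 1 siRNA.

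Of 11 tested genes of copper handling, 3 were higher and 1 lower in PLC5 with siControl, and 4 higher and 1 lower with siGALNT1, beside the shares of 22% and 22.9% over all probes. Their median difference was -0.05 with siControl and 0.16 with siGALNT1. CP, which encodes the secreted copper carrier ceruloplasmin, differed by 6.89 with siControl (adjusted p = 5.93e-07) and 7.17 with siGALNT1, where it was well above background on 2 of 3 HA22T arrays. ATP7A, a copper-exporting pump, differed by 1.31 and 1.72. SLC31A1, the main copper importer, differed by 2.23 and 1.72 on its brighter probe (adjusted p = 0.00411 and 0.0177), but its second probe gave 0.32 and 0.79 without passing (adjusted p = 0.719 and 0.3). Hepatocyte identity moved with the line as well. Of 14 hepatocyte markers, 12 were higher in PLC5 with either siRNA, and their summed linear level ran from 6.62 to 9.19 times the 75th percentile on HA22T arrays and from 127 to 233 times on PLC5 arrays. On HA22T arrays APOH was at no point well above background, and TTR was so on 1 array of siControl and 0 of siGALNT1. Of 6 tested mesenchymal markers, 4 were lower and 1 higher in PLC5 with siControl, and 5 and 1 with siGALNT1. The summed level of the mesenchymal markers ran from 56.5 to 110 on HA22T arrays and from 20.6 to 34.8 on PLC5 arrays. Spots left out as non-uniform added nothing to these sums, so their low ends understate the level. CDH2 and AXL were left out on replicate 2 of HA22T siControl. CDH2 was also left out on replicate 2 of HA22T siGALNT1 and on replicate 1 of PLC5 siControl. VIM, the intermediate filament vimentin, read 5.68 to 6.37 in HA22T siControl and -0.28 to 0.88 in PLC5 siControl, and FN1, fibronectin, was the 1 that was higher (3.60, adjusted p = 2.15e-06, with siControl). The part of hepatocyte or mesenchymal identity, copper or zinc handling in the metallothionein gap was not tested.

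Knockdown of GALNT1 left no member past the threshold in either line. GALNT1 itself, on its brightest probe, missed it too, at 34.3-fold lower in HA22T (limma, adjusted p = 0.0708) and 13.2-fold lower in PLC5. Its second probe passed in HA22T (26.9-fold lower, adjusted p = 0.0305) and not in PLC5 (8.18-fold lower). A missed threshold here therefore does not show that a gene was unchanged. In HA22T 0 of 8 tested member genes had an adjusted p below 0.05 (limma), and 0 had an unadjusted p below 0.05, where 0.00275% of 36327 probes passed the first and 2.99% the second. All 8 members had negative values, as did 20896 of the 36327 probes tested. MT1F turned to 0.0308 when arrays were scaled by the 75th percentile of unflagged spots, and MT1H to 0.215 when its dim second probe was averaged in. The changes were -0.81 ± 0.68 (SE) for MT1M, -0.68 ± 0.36 for MT2A, -0.65 ± 0.40 for MT1E and -0.59 ± 0.47 for MT1X. They were -0.53 ± 0.43 for MT1H, -0.51 ± 0.37 for MT1A, -0.34 ± 0.36 for MT1B and -0.09 ± 0.28 for MT1F. Apart from MT1F, these log2 values correspond to 1.27-fold to 1.75-fold. The median over the members was -0.56, beside -0.06 over all probes, and on the probe read for each of the 8 genes the groups overlapped. The second MT1X probe gave -0.55, with all 3 siGALNT1 arrays below all 3 siControl arrays (exact permutation p = 0.1, the smallest possible). On the second MT1E probe, with -0.66, the groups overlapped.

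Same-numbered siControl and siGALNT1 arrays of HA22T deviated together, with correlations of 0.55, 0.403 and 0.43 over 22282 probes, so each siGALNT1 array was also set against the siControl array of its number. Of the 24 such differences over 8 members, 23 were negative, and 7 of the 8 genes were lower in all 3 pairs. How many of all probes were lower in all 3 pairs was not counted, so these tallies have no share to stand beside. For MT2A the differences were -0.94, -0.49 and -0.60, for MT1E -0.84, -0.34 and -0.76, and for MT1A -0.58, -0.28 and -0.68. With the replicate number as a block, 5 of 8 members (MT1A, MT1E, MT1H, MT1X and MT2A) had an unadjusted p below 0.05 (limma), against 0 without it. Over all 36327 probes tested, 2146 had such a p with the block and 1086 without it. No member passed the adjustment over all probes (adjusted p = 0.821 for these 5 and up to 0.935 for the others). The median of the members was -0.25 without replicate 1 of HA22T siControl and -0.84 without replicate 1 of HA22T siGALNT1, so these arrays set much of its size. Since the members vary together from array to array, their shared sign is not 8 separate observations.

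In PLC5 the values scattered around 0. Of 7 tested member genes, 0 had an adjusted p below 0.05 and 0 an unadjusted p below 0.05, where 0% of 38070 probes passed the first and 1.33% the second. By the methods' t-test 1 member, MT2A, had an unadjusted p below 0.05 (0.0188, with an adjusted p of 1), as did 1.89% of all probes. The changes ran from -0.35 to 0.10 with a median of -0.06, beside 0.01 over all probes. MT2A gave the lowest, -0.35 ± 0.36 (95% interval -1.14 to 0.44), with its 3 siGALNT1 arrays all below its 3 siControl arrays. MT1H followed with -0.29 ± 0.43. The values were -0.09 for MT1A, -0.06 for MT1X, -0.05 for MT1E, 0.08 for MT1B and 0.10 for MT1F. MT1M was too dim in PLC5 for a value.

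**Figure D4:**
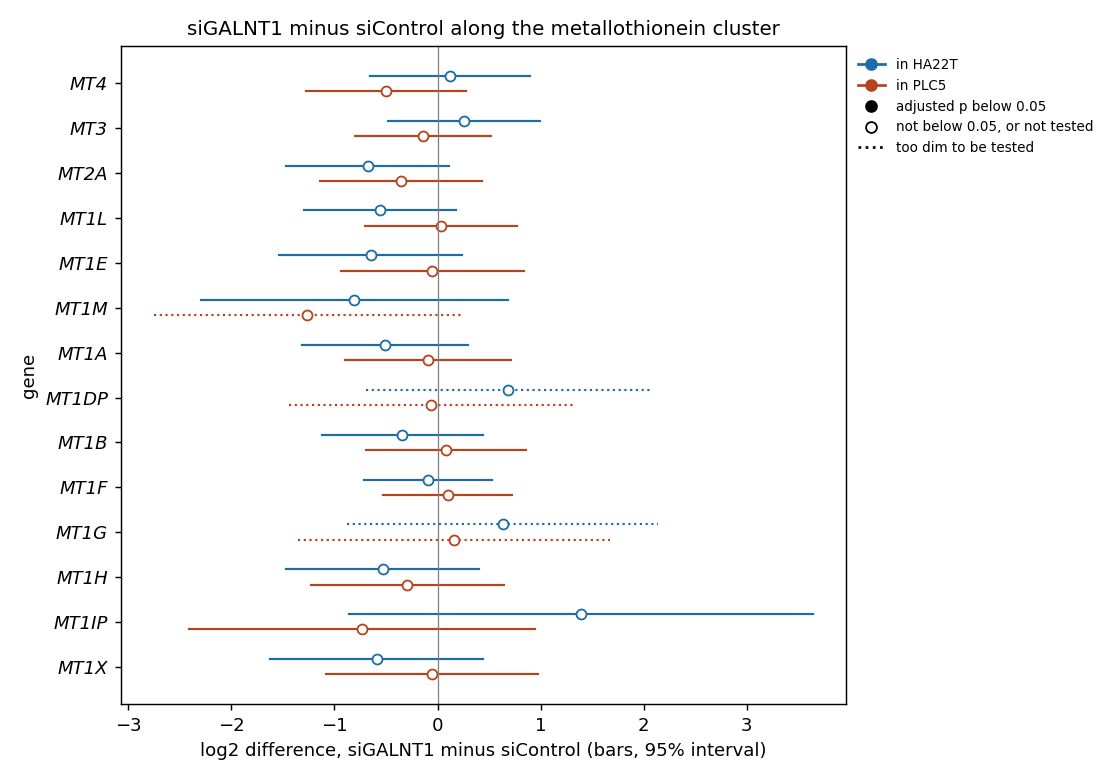
Log2 difference, siGALNT1 minus siControl, with its 95% interval for each metallothionein locus read on the array, in HA22T (blue) and PLC5 (red). No circle is filled because no locus passed an adjusted p of 0.05, and the members' HA22T values lie between -0.81 and -0.09 apart from the dim MT1G.

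Whether the siGALNT1 change differed between the lines was tested directly. The interaction, the change in PLC5 minus that in HA22T, had 0 of 7 members with an adjusted p below 0.05 and 0 with an unadjusted p below 0.05, where 0% and 2.43% of 39100 probes had these. MT1M, at background in PLC5, was left out. The interaction was positive for all 7, and for 21649 of the 39100 probes tested. Its median was 0.42 over the 7 members beside 0.07 over all probes. Since the members vary together, their shared sign is not 7 separate observations. The estimates were 0.33 for MT2A (95% interval -0.79 to 1.44), 0.60 for MT1E (-0.66 to 1.85) and 0.54 for MT1X (-0.92 to 1.99). These intervals hold both 0 and changes of more than 2-fold, so a difference between the lines in the response was neither shown nor bounded closely at 3 arrays a group.

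Within each group most member probes were highest on the same array, replicate 1. Exceptions in PLC5 siControl were MT2A, lowest on replicate 1 (1.14, 1.18 and 1.32), and MT1B, highest on replicate 2 (0.90, 1.45 and 0.36). In PLC5 siGALNT1 MT1B was highest on replicate 3. Over the member probes well above background in a group, replicate 1 was the highest array for 10 of 10 probes in HA22T siControl, 9 of 10 in HA22T siGALNT1, 7 of 9 in PLC5 siControl and 8 of 9 in PLC5 siGALNT1. Its median deviation from the group mean was 0.57, 0.49, 0.42 and 0.40 in that order, whereas over all probes it was 0.10, 0.05, 0.09 and 0.08. The rise was not particular to the members. HSPA8, KRT8 and UHRF1 were also highest on replicate 1 in every group, as for HSPA8 with 6.74, 5.33 and 5.58 in HA22T siControl. CD14 was lowest there in HA22T siControl (-0.45, 1.23 and 1.90), and how many probes go either way was not counted. All HA22T arrays shared a slide, so in HA22T the members' rise on replicate 1 arose within 1 slide. In PLC5 replicate 1 was the array on the other slide, and slide and replicate cannot be told apart there.

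**Figure D5:**
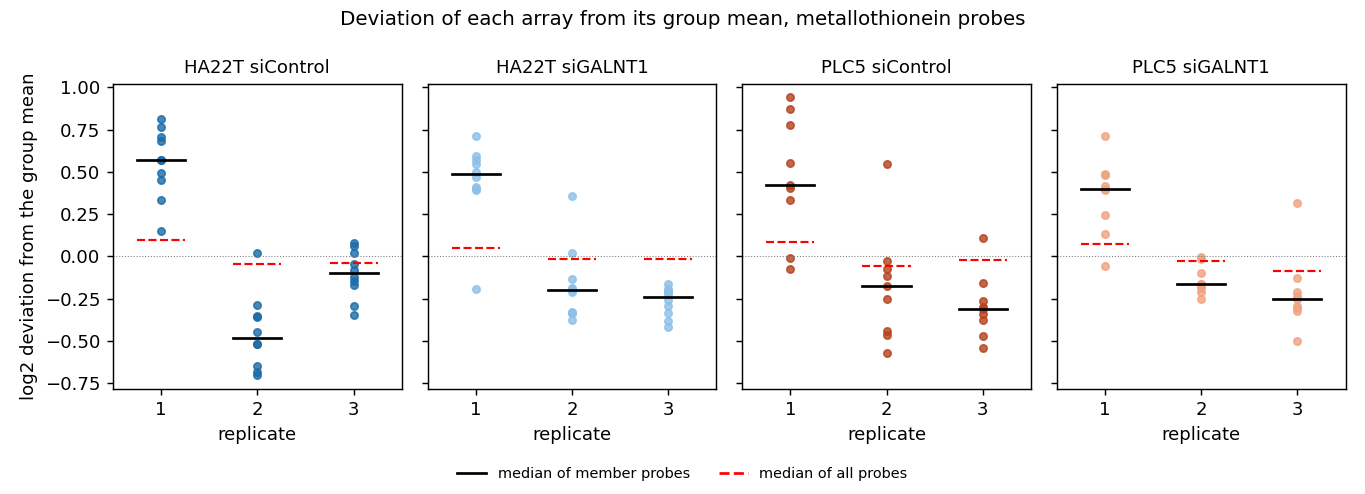
Log2 deviation of each array from the mean of its group for every member probe well above background in that group, by replicate number and group. Black bars are medians over the member probes and dashed red bars medians over all probes, and replicate 1 lies above the others with medians of 0.40 to 0.57 against 0.05 to 0.10 for all probes.

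MT2A was used as the reference for patterns over the 12 arrays, which fall into 2 clusters, the lines, so that a Pearson correlation mostly restates the line difference and is given as a description. Among 22282 probes well above background on all arrays, it was 0.996 with MT1E, 0.99 with MT1H, 0.989 with MT1A, 0.977 with MT1X and 0.93 with MT1B, and -0.9 with MT1F. The 5 other genes most like MT2A were PDE4DIP (0.998), CAVIN1 (0.996), STING1 (0.996), PKP3 (0.995) and MIR4435-2HG (0.994). CAVIN1, a coat protein of caveolae, had means of 5.45 in HA22T and 0.59 in PLC5. PDE4DIP, a scaffold protein of the Golgi and centrosome, had 2.41 and -2.26.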

How the data were processed

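The arrays were Agilent SurePrint G3 human arrays. Labeling and scanning were done by the authors, who read the images with Agilent Feature Extraction 10.5.1.1 (per the labels). The intensity they deposited is the background-subtracted processed signal of each spot with its flags. A table of log2 values was deposited as well. Its columns each have a 75th percentile near 0, which points to scaling by that percentile, a step that no source used here names. It served as an alternative.

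Here the log2 of the processed signal minus the 75th percentile of all spots besides controls was taken for each array, without control and non-uniform spots and with repeated spots of a probe averaged. RefSeq accessions named 28174 of 50599 probes. The design used an older build, so coordinates are given for promoters only. All 4 groups were fitted in limma 3.58.1 (R 4.3.3) with lmFit and eBayes and no covariates. A probe was tested where 3 or more of the 6 arrays compared had it well above background, with Benjamini-Hochberg adjustment over all of them. The fit was tested on simulated data. Exact permutation tests were two-sided and cannot go below 0.1 with 3 against 3 arrays. The number of arrays limits the precision. A probe dim throughout a group gave only a bound on the fold, and so did MT1M, dim on most PLC5 arrays. Pairing was read from the data by correlations above 0.1, since the labels give replicate numbers only. In PLC5 they were 0.706, -0.0232 and 0.164, so its numbers were not taken as pairs.

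The members, the gene lists and the tests were chosen with earlier results of these data known. Named genes were all members and GALNT1, MTF1 and SLC30A1, up to 4 genes a list with an adjusted p below 0.05 and the largest difference, and the 5 genes most like MT2A. HMOX1 and the named markers were picked with their values in view. Alternatives were normexp (offset 50, on median spot brightness, as the files hold no mean), quantile normalization, median scaling, the deposited table, other filters, non-uniform spots kept, slide or replicate number as a block, fits of 6 arrays, the methods' t-test, averaging the probes of a gene, and leaving out each array. A 75th percentile of unflagged spots and values within a slide were added after seeing the data.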

Additional observations from a re-analysis of the deposited data

How the results depend on the processing

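Between 6 and 8 members were called between the lines under each alternative run, and 0 members were called for siGALNT1 in either line or for the interaction. No line difference of a member turned its direction. With siControl they ran from -6.47 to 1.74 and 4 of 208 lost their call, and with siGALNT1 they ran from -5.75 to 1.89 and 11 of 208 did. Those losses were of MT1B, MT1F and MT1M. MT1B missed in both comparisons by the methods' t-test (adjusted p = 0.0681 and 0.0556) and within slide 1 (0.0847 and 0.152), where MT1F also missed (0.0605 and 0.0508). MT1M left the tested set under the filter on all 6 arrays, and with siGALNT1 also without any 1 HA22T siGALNT1 array. Leaving out 1 array gave 6 to 8 called with siGALNT1, with 6 without replicate 1 of HA22T siGALNT1.

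The siGALNT1 changes turned sign in 5 of 200 fits in HA22T and 17 of 182 in PLC5. Normexp gave -0.00619 for MT1B and 0.00918 for MT1E in PLC5, slide 2 alone gave 0.0243 for MT1X in PLC5, and in HA22T the 75th percentile of unflagged spots gave 0.0308 for MT1F and the mean over all probes 0.215 for MT1H, whose second probe is dim. Leaving out 1 array gave ranges in PLC5 of -0.287 to 0.188 for MT1A, -0.188 to 0.357 for MT1B, -0.259 to 0.162 for MT1E, -0.0328 to 0.265 for MT1F, -0.533 to 0.097 for MT1H and -0.412 to 0.381 for MT1X, and in HA22T of -0.291 to 0.0729 for MT1F. The cause was not tested. The unflagged percentile moved the median of all probes in HA22T from -0.0613 to 0.0613 and that of the members from -0.562 to -0.438. The replicate block of HA22T left 0 members called and the replicate block of PLC5 0, and across lines it left 8 called with either siRNA. The 6-array fits and the t-test give no interaction.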

Other observations

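Other inducers of metallothioneins were read from their targets, as values only. Beside the counts below, 22% of all probes were called between the lines with siControl and 22.9% with siGALNT1, in either direction. Of 9 tested genes of the glucocorticoid response, SGK1, a kinase induced by glucocorticoids, was lower in PLC5 (-3.37 with siControl, adjusted p = 1.39e-05, and -3.44 with siGALNT1, adjusted p = 1.3e-05) and TAT, a liver enzyme under the same control, was higher (1.36, adjusted p = 0.00587, and 1.47, adjusted p = 0.00368). The remaining 7 did not pass. Of 12 tested genes of the interleukin 6 and acute phase response, 5 were higher and 4 lower in PLC5 with either siRNA. The fibrinogen chain FGG differed by 9.22 and 10.51, with 2 of 3 HA22T arrays well above background with siControl and 1 of 3 with siGALNT1, so its size rests in part on background. SAA1, serum amyloid A, was not well above background on any PLC5 array and was at least 392-fold lower in PLC5 with siControl (adjusted p = 1.92e-07) and at least 379-fold lower with siGALNT1 (adjusted p = 1.74e-07). Of 9 tested heat shock genes, 0 were higher and 3 lower in PLC5 with either siRNA, among them HSPA1B, an inducible chaperone (-2.18, adjusted p = 6.58e-05, and -1.96, adjusted p = 0.000306), HSPA1A (-1.69 and -1.44) and HSPB1 (-1.24 and -1.17), whose 2 other probes moved the same way.

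Of 6 tested genes that set or remove DNA methylation, 2 were lower in PLC5 with siControl and 1 with siGALNT1. The shares over all probes, in either direction, were 22% and 22.9%. UHRF1, which guides maintenance methylation, differed by -2.18 (adjusted p = 0.0115) and -1.59 (adjusted p = 0.0495), and both of its probes passed. TET1, which oxidizes methylated cytosine, differed by -2.30 (adjusted p = 0.0437) on its brightest probe, but its other 2 probes gave -0.74 and -0.41 and did not pass. Methylation itself was not measured on these arrays.

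Of the other cell type markers, 1 of 5 tested epithelial genes was higher in PLC5 with siControl, CLDN3 (2.48, adjusted p = 0.000285), and with siGALNT1 CLDN3 was higher and CLDN4 lower (-2.60, adjusted p = 0.0152). Of 3 tested endothelial genes, PECAM1 was higher in PLC5 with either siRNA (5.41 and 5.94, the latter with 2 of 3 HA22T arrays well above background), and its other probes moved the same way. CD14, a marker of monocytes, was lower in PLC5 (-3.86, adjusted p = 0.00303, and -3.71, adjusted p = 0.004), and CD3E was lower with siGALNT1 (-1.30, adjusted p = 0.0291). These marker counts stand beside 22% and 22.9% of all probes called in either direction, with siControl and siGALNT1.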
